A study of Mus musculus with 18 samples.

Results

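The genes of cholesterol and fatty acid synthesis were followed through 18 mouse lung cultures, in which bulk RNA sequencing had been done on organoids and on tumoroids. The set, chosen by function with earlier results of these data known, holds 33 of the 46603 genes in the expression tables, matched by symbol. It was divided into a sterol branch of 21 genes, which runs from acetoacetyl-CoA to cholesterol and includes the factors that control it, and a fatty acid branch of 12 genes, which makes, lengthens and desaturates fatty acids. All 33 were detected well enough to be tested in each comparison.

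Cells make cholesterol from acetyl-CoA by way of mevalonate, farnesyl diphosphate, squalene and lanosterol. They make palmitate from acetyl-CoA and malonyl-CoA, and then lengthen or desaturate it. The transcription factors SREBP2 (gene Srebf2) and SREBP1 (gene Srebf1) drive the sterol and the fatty acid genes, respectively, with some overlap, and INSIG1 holds them in the endoplasmic reticulum when sterols are plentiful. In the lung, alveolar type 2 (AT2) cells use both routes to supply pulmonary surfactant, a film rich in saturated phosphatidylcholine and cholesterol that keeps the alveoli open, whereas club and basal cells of the airway line and renew the conducting tubes.

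The cultures came from mice that carry human EGFR with the T790M and L858R substitutions in the Col1a1 locus, behind a CAG promoter and a lox-stop-lox cassette that Cre recombinase removes. Organoids were grown in Matrigel on Transwell inserts together with lung mesenchymal endothelial cells, after adenovirus carrying GFP (Ad-GFP, the control) or Cre (Ad-Cre, which switches the transgene on). Ad-Cre organoids were also placed in the trachea of immunocompromised mice, and the tumors that grew were returned to culture as tumoroids. The tests below compare the spread between cultures, since each library was 1 culture and no condition of the organoids was repeated, and the labels do not say how many mice lay behind them.

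The airway organoids were 5 cultures, namely tracheal club (NGFR-negative) and tracheal basal (NGFR-positive) organoids, each with Ad-GFP and with Ad-Cre, and 1 Ad-Cre culture of bronchiolar BASC organoids (BASC, bronchioalveolar stem cell, sorted as Sca1-positive). The alveolar organoids were 3 cultures, AT2 (Sca1-negative cells) with Ad-GFP, AT2 with Ad-Cre and alveolar BASC with Ad-Cre. Mixed BASC organoids gave 2 cultures, 1 with each virus, and were kept apart. The 8 tumoroids, all with the transgene switched on, were 3 AT2-derived, 3 mixed BASC-derived and 1 bronchiolar BASC-derived culture from transplants and 1 culture from an autochthonous tumor, one that arose in place. AT2 tumoroids 2 and 3 share a number in their labels, as do mixed BASC tumoroids 2 and 3 and the bronchiolar BASC tumoroid, so that the tumoroids of each set may come from 1 mouse, and the AT2 tumoroids carry an NGFR-negative sorting label beside their AT2 origin.

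The 10 organoids had total expected counts (the RSEM estimates of reads per gene) between 27772660 and 97191624. The 8 tumoroids were shallower, between 15327265 and 23355938. Levels are given as CPM, counts scaled to library size after TMM scaling over all 18 libraries, which compares samples for 1 gene. Levels of different genes are compared in TPM, which is scaled by transcript length. The alveolar label fitted its defining marker, with Sftpc (surfactant protein C) from 28014 to 29436 CPM in the 3 alveolar organoids against 1.34 to 144.5 in the 5 airway organoids. The club label fitted its markers in part. In the 2 club organoids the secretory protein Scgb1a1, which defines club cells, stood at 2.56 and 4.46 CPM, but Scgb3a1 stood at 633 and 794 CPM (basal organoids 241 and 235), and the 4 club markers summed to 4387 and 4159 CPM, beside 3897 and 2555 in the basal organoids. The basal keratin Krt5 was high in both, at 2391 and 2364 CPM in the club and 2156 and 1873 in the basal organoids. Ngfr, the gene of the sorting marker, was at 97.87 and 99.5 CPM in the club and 97.69 and 89.65 in the basal organoids. The 5 basal markers summed to 4286 and 4216 CPM in the club and 3965 and 3369 in the basal organoids. In sum, the club organoids thus had no less basal marker RNA than the basal ones. Scgb1a1 was higher in the alveolar than in the club organoids, at 13.2, 315.7 and 205 CPM in AT2 Ad-GFP, AT2 Ad-Cre and alveolar BASC. The 4 club markers summed to 311 to 721 CPM in the alveolar organoids, below the club and basal organoids. Organoids were sequenced from TruSeq libraries and tumoroids from BGI libraries, so that platform and transplantation cannot be told apart.

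Of the 33 members, 26 had an entry in the RefSeq promoter table (17 sterol and 9 fatty acid), a window from 250 bases before to 50 after the start of transcription in GRCm38.p6. A sterol regulatory element, the SREBP site searched as TCACNCCAC on both strands, was found in 1 of the 17 sterol members (5.88%), in 0 of the 9 fatty acid members and in 1.44% of all 27025 genes in the table. The CCAAT box, searched as CCAAT on both strands, is the site of NF-Y, a factor that acts with SREBP. It was found in 16 of the 17 sterol members (94.1%), in 6 of the 9 fatty acid members (66.7%) and in 41.1% of all genes. A gene with several windows counted once if any window matched. The stretches below lie upstream of the start of transcription and are printed along the strand of the gene, with capitals on the matches (ATTGG is CCAAT read on the other strand). Hmgcs1 at chr13:119690102-119690322, on the plus strand, is shown because it alone held both motifs, at TCACCCCAC and 3 times at ATTGG.
Hmgcs1: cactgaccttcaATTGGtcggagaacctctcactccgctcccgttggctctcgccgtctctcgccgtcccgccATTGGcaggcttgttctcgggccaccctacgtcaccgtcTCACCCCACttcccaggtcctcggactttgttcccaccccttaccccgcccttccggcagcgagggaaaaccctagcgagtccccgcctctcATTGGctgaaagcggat
Mvk at chr5:114444084-114444268, on the plus strand, held the most CCAAT boxes, 5, and Lss at chr10:76531531-76531559, on the plus strand, was among the sterol genes with the largest difference between alveolar and airway organoids.
Mvk: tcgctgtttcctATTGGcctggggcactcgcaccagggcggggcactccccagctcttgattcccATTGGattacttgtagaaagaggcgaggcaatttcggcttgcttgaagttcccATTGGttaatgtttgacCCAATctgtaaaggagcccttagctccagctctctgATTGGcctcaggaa
Lss: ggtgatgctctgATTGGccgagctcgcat
Fasn at chr11:120824590-120824649, on the minus strand, is shown as the synthase of the other branch, where 2 of its 3 matches overlap and read CCAATTGG.
Fasn: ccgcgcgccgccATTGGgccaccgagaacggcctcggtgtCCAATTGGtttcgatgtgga
Srebf2 at chr15:82147122-82147150, on the plus strand, and Ebp at chrX:8193551-8193694, on the minus strand, are shown because they held the box too and were the sterol members that did not pass the test between alveolar and airway organoids.
Srebf2: cttcgcgcgccgATTGGctaatgcaagcc
Ebp: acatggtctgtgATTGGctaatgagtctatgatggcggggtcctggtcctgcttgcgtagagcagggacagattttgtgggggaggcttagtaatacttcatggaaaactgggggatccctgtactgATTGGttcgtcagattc
A match describes letters in this window and not binding. The lack of a match does not show that a gene has no such site, since only these letters in this window were searched.

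Alveolar organoids had higher levels of nearly the whole set than airway organoids. In the sterol branch 19 of 21 members were higher and 0 lower, with a median log2 fold change of 1.39 (range 0.07 to 1.83), and in the fatty acid branch 12 of 12 were higher, with a median of 1.5 (range 0.41 to 5.09). The test was edgeR's quasi-likelihood test with Benjamini-Hochberg adjustment over 18362 genes, called at an adjusted p below 0.05. The contrast was a broad one, and 27.9% of all genes were called higher and 30.5% lower, around a median of -0.06. With the Ad-GFP and Ad-Cre libraries of a population summed, the medians were 1.37 in the sterol and 1.45 in the fatty acid branch. In that setting 3279 of 18926 genes were called higher and 2716 lower. Each of the 3 alveolar organoids lay above each of the 5 airway organoids in 18 of 21 sterol and 11 of 12 fatty acid members, against 27.0% of all genes above in this way and 27.5% below. The groups overlapped for Ebp, Sc5d, Srebf2 and Elovl6.

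**Figure D1:**
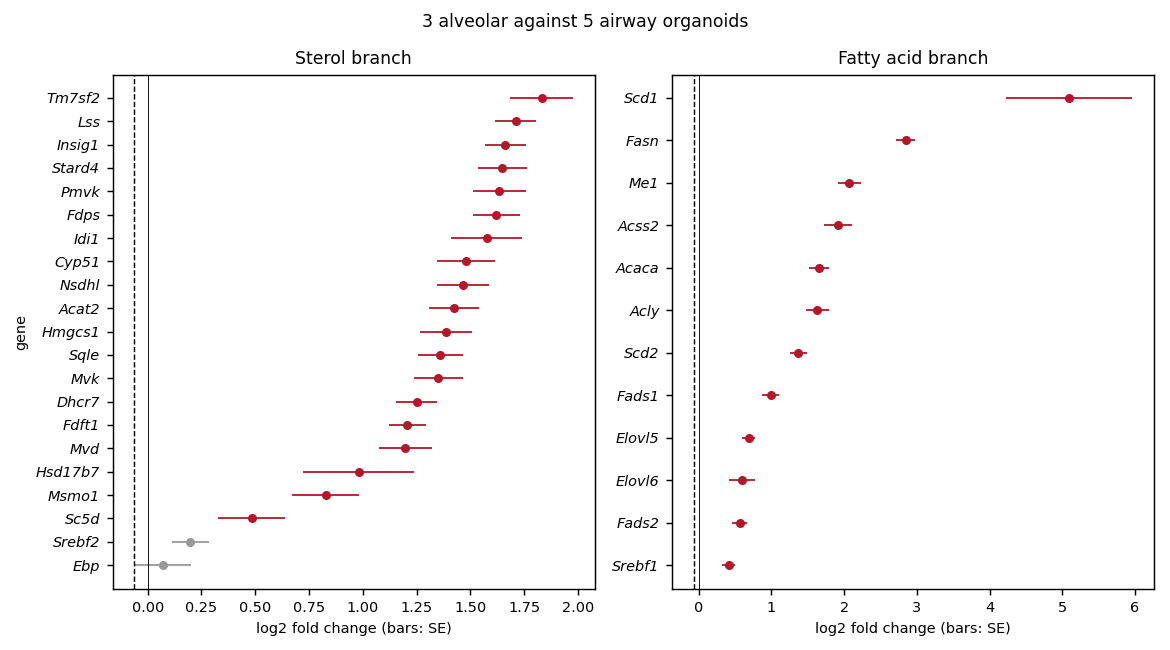
Log2 fold change of each member (x axis) in 3 alveolar against 5 airway organoids. Bars are an SE derived from the edgeR F statistic. Points are red for genes called and grey for genes not called, and a dashed line marks the median of all genes. Fold changes of the sterol genes end at 1.83, while Fasn at 2.85 and Scd1 at 5.09 stand to the right of the other fatty acid genes.

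The transcription factors Srebf2 and Srebf1 differed less than Insig1 among the members that control the branches. Srebf2 (chromosome 15, 82147181 to 82205379, plus strand) was at 269, 300 and 249 CPM in the AT2 Ad-GFP, AT2 Ad-Cre and alveolar BASC organoids. It was at 252, 238, 237, 244 and 216 CPM in the club Ad-GFP, club Ad-Cre, basal Ad-GFP, basal Ad-Cre and bronchiolar BASC organoids. These ranges overlap, and the log2 fold change of 0.20 ± 0.09 (SE) did not pass the test by edgeR (adjusted p = 0.0742), though it did with DESeq2 (adjusted p = 0.0111). Srebf1 (chromosome 11, 60199089 to 60222581, minus strand) was at 236, 266 and 208 CPM in the alveolar and at 193, 174, 183, 171 and 167 in the airway organoids, in the same order. The groups did not overlap, and the log2 fold change was 0.41 ± 0.09 (edgeR adjusted p = 0.00469). With the Ad-GFP and Ad-Cre libraries of a population summed, it was 0.40 (adjusted p = 0.0579).

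Insig1 (chromosome 5, 28071363 to 28078662, plus strand), itself a target of SREBP2, showed a much wider gap. It was at 320, 270 and 283 CPM in the alveolar organoids and at 80.7, 95.9, 86.6, 98.9 and 99.0 in the airway organoids. The lowest alveolar culture thus had more than the highest airway culture by a wide margin, and the log2 fold change was 1.66 ± 0.10, or 3.16-fold (edgeR adjusted p = 9.24e-06). Stard4, a carrier of cholesterol between membranes, was at 156, 119 and 122 CPM against 36.2, 47.1, 43.6, 41.9 and 42.8, a log2 fold change of 1.65 ± 0.11 (edgeR adjusted p = 1.83e-05).

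The early enzymes of the sterol branch were higher in the alveolar organoids throughout. Hmgcs1 (HMG-CoA synthase, chromosome 13, 119690379 to 119708260, plus strand) was at 584, 499 and 592 CPM in the alveolar organoids and at 173, 234, 214, 209 and 240 in the airway organoids. No airway culture came near an alveolar one, and the log2 fold change was 1.39 ± 0.12, or 2.62-fold (edgeR adjusted p = 5.09e-05). Acat2, which makes the acetoacetyl-CoA that Hmgcs1 uses, differed by 1.42 on the log2 scale, and Mvk, Pmvk and Mvd, which phosphorylate and decarboxylate mevalonate, by 1.35, 1.64 and 1.2. Idi1 and Fdps, which build farnesyl diphosphate, differed by 1.58 and 1.62, and Fdft1 and Sqle, which make and oxidize squalene, by 1.21 and 1.36. Each of these passed the edgeR test with its groups apart.

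The later enzymes were less uniform. Lss, the cyclase that forms lanosterol, was at 220, 176 and 178 CPM in the alveolar organoids and at 53.2, 59.0, 57.3, 64.1 and 59.4 in the airway organoids, a log2 fold change of 1.71 ± 0.09 (edgeR adjusted p = 8.32e-06). Tm7sf2, a sterol reductase, had the largest difference of the branch, with 53.1, 38.5 and 37.3 CPM against 10.4, 13.2, 10.8, 12.2 and 13.8, and a log2 fold change of 1.83 ± 0.15 (edgeR adjusted p = 3.39e-05). Cyp51, Nsdhl and Dhcr7 lay between 1.25 and 1.48. Msmo1 differed by 0.83, Hsd17b7 by 0.98 and Sc5d by 0.48 on the log2 scale, still higher by the test. Ebp, a sterol isomerase, was at 30.8, 30.4 and 36.2 CPM against 28.2, 30.0, 38.6, 31.0 and 27.2. Its groups overlapped, at a log2 fold change of 0.07 ± 0.13 (edgeR adjusted p = 0.666).

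In the fatty acid branch the gap was widest at the synthase and at the stearoyl-CoA desaturase. Fasn (chromosome 11, 120805846 to 120824547, minus strand), which makes palmitate, was at 2220, 2195 and 1586 CPM in the alveolar organoids and at 286, 276, 278, 291 and 259 in the airway organoids. The airway values were tightly grouped, and the log2 fold change was 2.85 ± 0.13, or 7.19-fold (edgeR adjusted p = 4.46e-06). Scd1 (chromosome 19, 44394455 to 44407879, minus strand), which makes monounsaturated fatty acids, was at 27744, 18344 and 17134 CPM in the alveolar organoids. It was at 365, 358, 174 and 191 CPM in the 4 tracheal cultures and at 2016 in the bronchiolar BASC organoids. The groups stood far apart, but the bronchiolar BASC culture was well above the tracheal ones and the coefficient of variation (CV) of the airway organoids was 126.5%. The log2 fold change was 5.09 ± 0.87, or 34.2-fold (edgeR adjusted p = 0.00143), and it was 6.29 without the bronchiolar BASC organoids.

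Genes that feed the synthase were higher too. Me1, the malic enzyme that supplies NADPH, was at 986, 949 and 921 CPM against 238, 238, 194, 175 and 288, a log2 fold change of 2.07 ± 0.16 (edgeR adjusted p = 2.7e-05). Acss2, which makes acetyl-CoA from acetate, was at 126, 80.5 and 77.7 CPM against 28.1, 28.1, 26.3, 24.9 and 18.5, a log2 fold change of 1.91 ± 0.19 (edgeR adjusted p = 0.000101). Neither gene had overlapping groups. Acly and Acaca, which make acetyl-CoA from citrate and malonyl-CoA from acetyl-CoA, differed by 1.63 and 1.66 on the log2 scale, and the second stearoyl-CoA desaturase Scd2 by 1.37. The elongases and the desaturases of polyunsaturated fatty acids had smaller differences, 0.69 for Elovl5, 0.59 for Elovl6, 0.99 for Fads1 and 0.56 for Fads2.

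On the length-scaled TPM scale, the sum of the sterol members' means was 2569 TPM in the alveolar and 1176 in the airway organoids. For the fatty acid members it was 10304 against 1498 TPM. Fdps was the most abundant sterol member in both, at 518 ± 78.6 TPM (SD, n = 3) and 188 ± 6.99 (n = 5). In the alveolar organoids Scd1 alone, at 6975 ± 2006 TPM, made up 67.7% of the fatty acid sum, ahead of Scd2 (1190 TPM) and Fasn (729 TPM). In the airway organoids Scd2 led at 512 ± 32.8 TPM (34.2% of the sum) and Scd1 followed at 230.5 ± 294 (15.4%), a mean whose SD exceeds it.

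Several values moved with this contrast. The summed level of 8 AT2 markers was 47302 to 55106 CPM in the alveolar and 610.5 to 3041 in the airway organoids. Of 8 fibroblast markers 7 were called higher (sum 4991 to 9032 CPM against 2196 to 3479), and of 8 proliferation genes 6 were called lower (sum 236 to 288 CPM against 341 to 491). Endothelial and adipocyte marker sums, 5 genes each, stayed at or below 2.06 CPM in all 8 cultures, and 5 immune markers summed to 18.6 to 19.3 CPM against 20.4 to 67.5. The part of fibroblasts and of growth rate in the result was not tested. In bulk samples, fewer cells of a type and less RNA per cell cannot be told apart.

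Genes of the same pathways outside the set were also read, on lists that were likewise chosen with earlier results of these data known. Of 11 other sterol genes, 6 were higher by edgeR. The largest difference among these was that of Npc2, a lysosomal cholesterol carrier (log2 fold change 3.51 ± 0.36, adjusted p = 9.98e-05). Of 7 genes of sterol efflux and storage, 4 were higher and 2 lower, led by the oxysterol receptor Nr1h3 (4.65 ± 0.46, edgeR adjusted p = 9.26e-05) and the exporter Abcg1 (-3.70 ± 0.49, edgeR adjusted p = 0.000393). Abcg1 lay at 0.18 CPM on average in the alveolar and at 2.25 in the airway organoids, so both levels were low.

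Of 19 other fatty acid genes 18 were tested, and 13 were higher and 1 lower. Elovl1, an elongase of very long chains, differed by 4.28 ± 0.15 (edgeR adjusted p = 1.87e-06) and Acacb, the mitochondrial acetyl-CoA carboxylase, by 3.02 ± 0.16 (edgeR adjusted p = 7.09e-06). Of 17 genes listed here as surfactant lipid genes, 13 were higher and 1 lower. The list is broad and includes Dgat1, Dgat2, Plin2 and Fabp5, which are not confined to surfactant. Lpcat1, which remodels phosphatidylcholine for surfactant, differed by 4.48 ± 0.69 (edgeR adjusted p = 0.000832). Pcyt1b, an enzyme of phosphatidylcholine synthesis, was lower by the same test (-4.02 ± 0.51, adjusted p = 0.000295), whereas its paralog Pcyt1a, named after its value was seen, was higher (0.90).

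**Figure D2:**
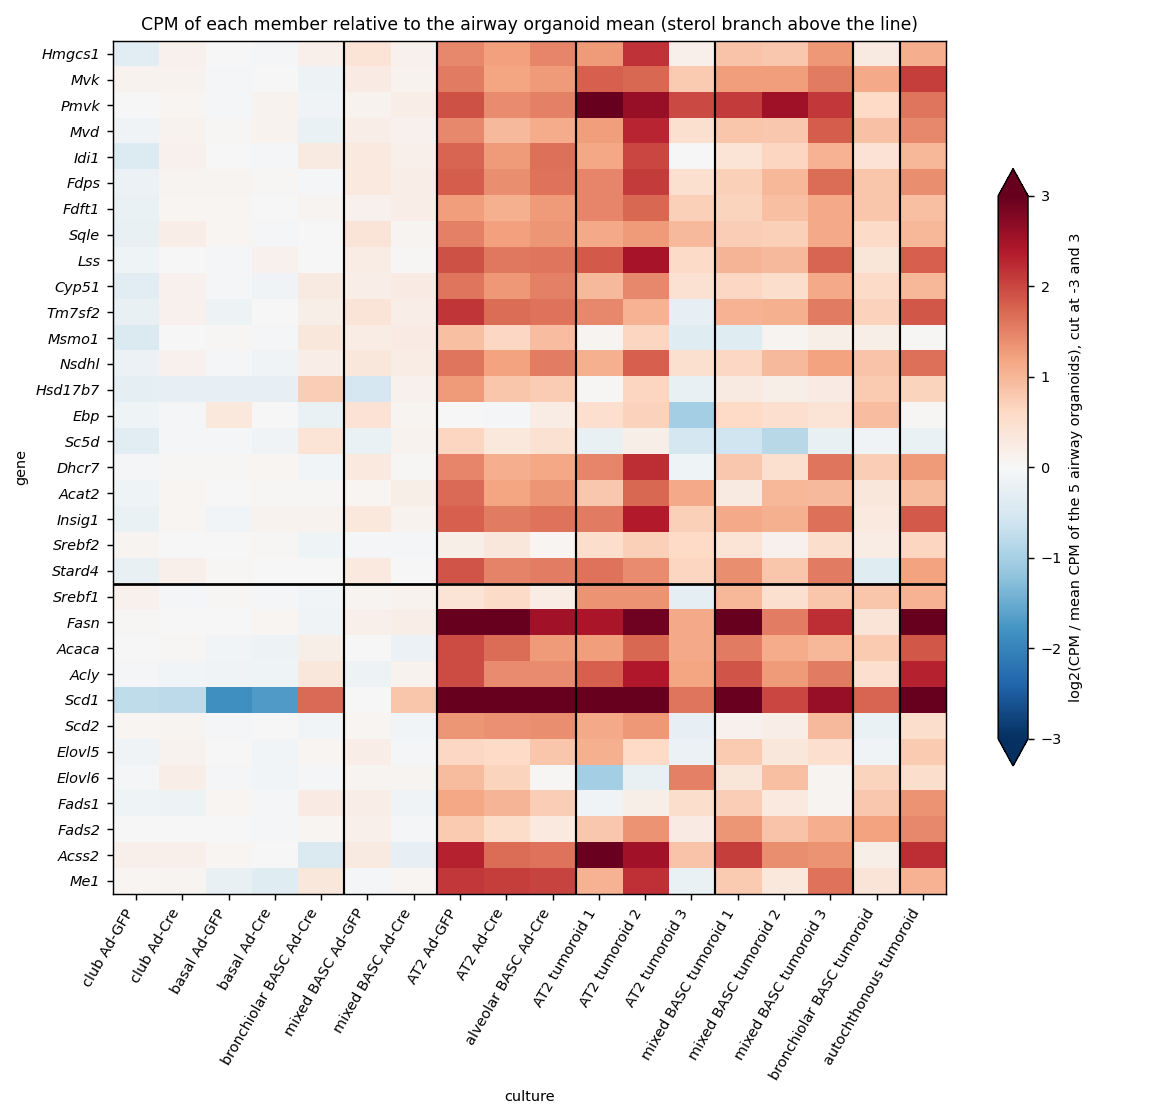
Heat map of the 33 members (rows, sterol branch above the horizontal line) in the 18 cultures (columns, groups divided by vertical lines), colored by log2 CPM relative to the mean CPM of the 5 airway organoids and cut at -3 and 3. The 2 mixed BASC organoids look closer to the airway than to the alveolar organoids, which are red through nearly all rows. AT2 tumoroid 3 and the bronchiolar BASC tumoroid are paler than the other tumoroids.

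Mixed BASC organoids stood nearer to the airway than to the alveolar organoids for these genes. Both mixed BASC cultures lay below each of the 3 alveolar organoids in 20 of 21 sterol and 11 of 12 fatty acid members. The exceptions were Ebp and Elovl6. The Ad-GFP culture lay above each of the 5 airway organoids in 15 of 21 sterol and 4 of 12 fatty acid members. For the Ad-Cre culture these counts were 7 and 1. Their median level was 45.8% (Ad-GFP) and 42.1% (Ad-Cre) of the alveolar mean in the sterol branch, and 36.4% and 35.7% in the fatty acid branch. Fasn was at 310 and 319 CPM, Hmgcs1 at 283 and 233 and Scd1 at 618 and 1099. The same cultures had the basal marker Krt5 at 1676 and 1021 CPM, inside the airway range, and Sftpc at 98.1 and 671 CPM. For Sftpc the Ad-Cre culture was thus above the airway organoids (up to 144.5 CPM) and far below the alveolar ones (28014 CPM or more). The bronchiolar BASC organoids were below each alveolar culture in 20 of 21 sterol members and 12 of 12 fatty acid members. The share of all genes below in this way is not given here for the mixed or bronchiolar BASC cultures. Between the whole alveolar and airway groups it was 27.0%.

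Within the airway group the 4 tracheal cultures had a median CV of 9.19% over the sterol and 5.85% over the fatty acid members. The widest was Scd1 at 38.1%, higher in both club than in both basal cultures. Within the alveolar group the median CV was 13.5% and 17.6%. The AT2 Ad-GFP culture had the highest level of the 10 organoids in 16 of 21 sterol and 9 of 12 fatty acid members, and the club Ad-GFP culture the lowest in 14 of 21 sterol members. The share of all genes for these ranks is not given here.

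**Figure D3:**
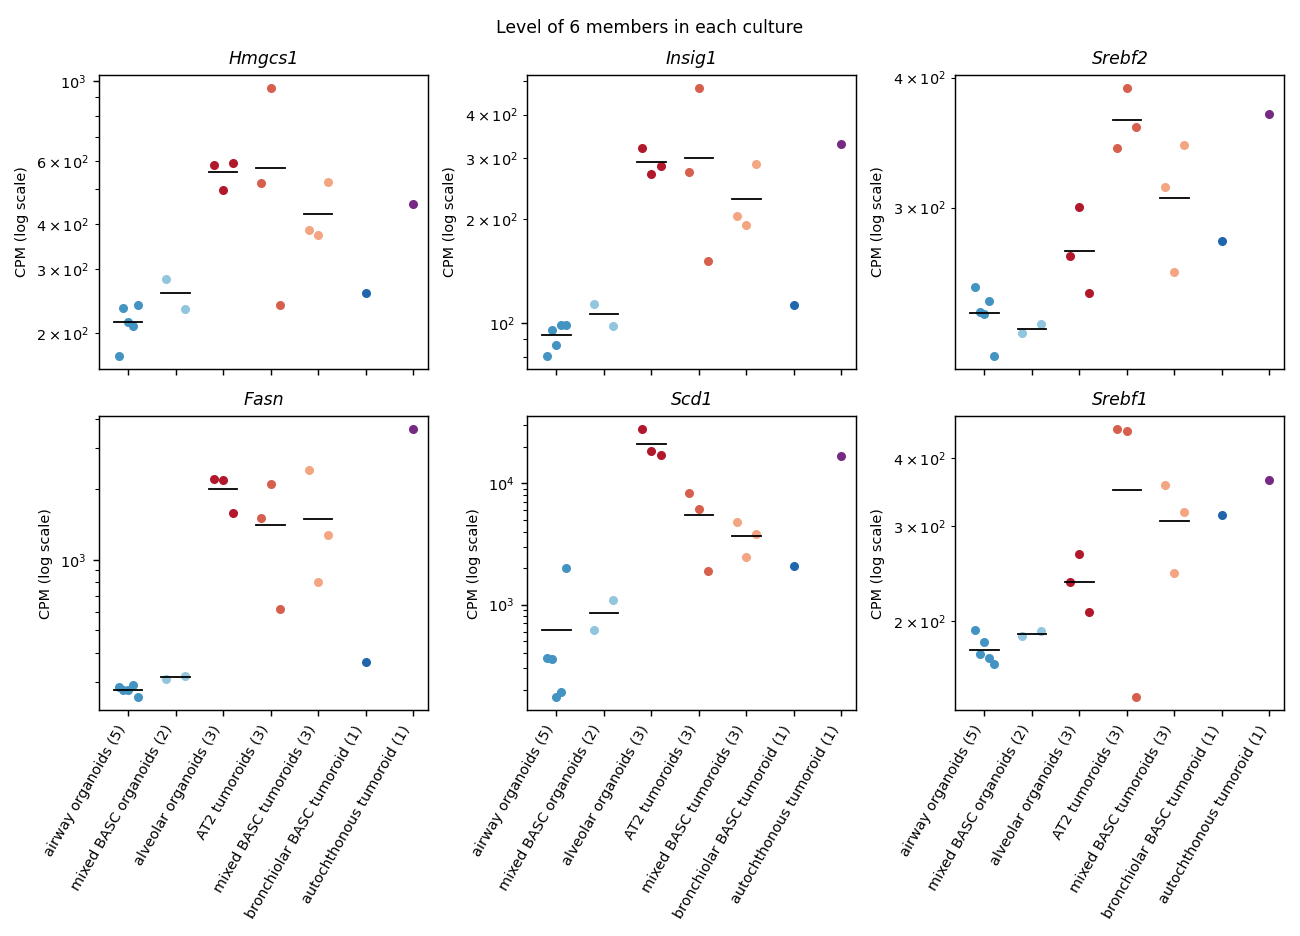
Level in CPM (log scale) of Hmgcs1, Insig1, Srebf2, Fasn, Scd1 and Srebf1 in each culture, with 1 point per culture in 7 groups and a line at the mean of each group of more than 1. Fasn and Scd1 separate the alveolar from the airway organoids most, and the bronchiolar BASC tumoroid has 366 CPM of Fasn where the other tumoroids have 616 to 3616.

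No member passed the test when the EGFR transgene was switched on in culture. Ad-Cre was compared with Ad-GFP in 4 pairs (club, basal, AT2 and mixed BASC), with the population as a block. Of 33 members 0 were called, with adjusted p from 0.994 to 0.999 by edgeR, and 0.0% of 17749 genes were called. Members with an unadjusted p below 0.05 numbered 0, against 1.97% of all genes (350), and DESeq2 called 3 genes higher and 2 lower among all genes. The median log2 fold change was -0.05 in either branch, and SEs ran up to 0.28, for Scd1. Hmgcs1 differed by -0.04 ± 0.14, Fasn by 0.00 ± 0.10 and Insig1 by -0.02 ± 0.11.

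The pairs did not move alike. In the club pair 20 of 21 sterol members were higher with Ad-Cre (median 0.25 on the log2 scale), and in the AT2 pair 20 of 21 were lower (median -0.36). The basal pair had 9 higher and 12 lower (median -0.03), and the mixed BASC pair 8 higher and 13 lower (median -0.11). Hmgcs1 went from 173 to 234 CPM in the club, from 214 to 209 in the basal, from 584 to 499 in the AT2 and from 283 to 233 in the mixed BASC pair. The fatty acid members were more evenly split, 6 higher and 6 lower in the club, 3 and 9 in the basal, 2 and 10 in the AT2 and 6 and 6 in the mixed BASC pair. Each pair is 1 culture against 1, so these counts carry no error of their own. The share of all genes higher or lower in each pair is not given here, so the counts cannot be set against it.

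The difference between distal (AT2 and mixed BASC) and tracheal (club and basal) pairs was tested as an interaction. It called 0 members and 0.0% of 19178 genes by edgeR. At an unadjusted p below 0.05 stood 4 of 21 sterol members (Lss -0.41, Tm7sf2 -0.59, Insig1 -0.45 and Stard4 -0.51) and 1 of 12 fatty acid members (Acss2 -0.55 ± 0.16, edgeR adjusted p = 0.871), against 4.64% of all genes (890). Negative values mean a lower response to Ad-Cre in the distal pairs, and the medians were -0.36 for the sterol and -0.15 for the fatty acid members, against -0.01 over all genes. Other lists also had shifted medians here, with 0 genes called by edgeR. Values were negative in 8 of 8 proliferation genes (median -0.39) and 5 of 5 ciliated markers (median -1.35) and positive in 6 of 8 fibroblast markers (median 0.47), and their part in the sterol values was not tested.

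**Figure D4:**
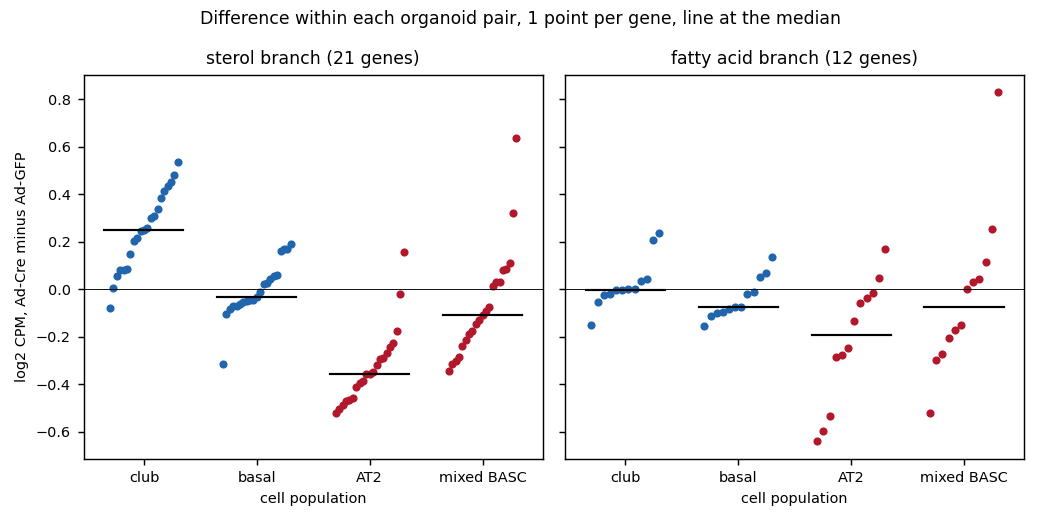
Difference in log2 CPM between the Ad-Cre and the Ad-GFP organoids of each population (x axis), with 1 point per gene, a line at the median, tracheal populations in blue and distal ones in red. Sterol genes lie mostly above 0 in the club pair (median 0.25) and mostly below 0 in the AT2 pair (median -0.36).

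Most members of both branches were not called different between the tumoroids and the alveolar organoids. The 6 AT2- and mixed BASC-derived tumoroids were set against the 3 alveolar organoids. This reference leaves out the mixed BASC organoids, the labelled origin of the mixed BASC-derived tumoroids, so it does not show a change from that origin. In the sterol branch 1 of 21 members was higher, 2 were lower and 18 were not called by edgeR (median log2 fold change -0.16), where 12.7% of 16260 genes were called higher and 9.07% lower. In the fatty acid branch 0 of 12 were higher and 1 was lower (median -0.11), against a median of 0.05 over all genes. Both medians changed sign with 7 transplant tumoroids against 4 distal Ad-Cre organoids, to 0.34 in the sterol and 0.38 in the fatty acid branch. That setting adds the bronchiolar BASC tumoroid, and its 4 organoids include the mixed and bronchiolar BASC cultures. These 4 are thus not all alveolar. The mixed and bronchiolar BASC cultures had a median of 42.1% and 39.7% of the alveolar mean in the sterol branch, and 35.7% and 38.5% in the fatty acid branch. Each of the 6 tumoroids lay above each of the 3 alveolar organoids in 1 sterol member, against 12.1% of all genes, and below in 3 sterol and 3 fatty acid members, against 17.7%.

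Scd1 was the fatty acid member called lower than in the alveolar organoids. It was at 8319, 6156 and 1904 CPM in AT2 tumoroids 1 to 3 and at 4834, 2471 and 3785 in mixed BASC tumoroids 1 to 3, against 17134 to 27744 in the alveolar organoids. The groups did not overlap, and the log2 fold change was -2.09 ± 0.44, or 4.24-fold lower (edgeR adjusted p = 0.0107). It was -1.85 without the AT2 Ad-GFP organoids (adjusted p = 0.0527), and it was -1.11 with 7 transplant tumoroids against 4 distal Ad-Cre organoids (adjusted p = 0.304). Those 4 organoids include the mixed and bronchiolar BASC cultures, with Scd1 at 1099 and 2016 CPM. The mixed BASC tumoroids were thus above, not below, the 1 Ad-Cre organoid culture of their own labelled origin. All 6 tumoroids were still above the tracheal organoids, but AT2 tumoroid 3, at 1904 CPM, was below the bronchiolar BASC organoids at 2016. On the TPM scale Scd1 remained the first fatty acid member at 1549 ± 668 TPM (SD, n = 6), or 35.9% of a sum of 4320.

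Fasn did not pass the test. It was at 1511, 2114 and 616 CPM in AT2 tumoroids 1 to 3 and at 2411, 805 and 1282 in mixed BASC tumoroids 1 to 3, which spans the alveolar range of 1586 to 2220 and runs below it (log2 fold change -0.34 ± 0.40, edgeR adjusted p = 0.596). Srebf1 was at 451, 449, 145, 356, 246 and 318 CPM in the same order (0.59 ± 0.32, adjusted p = 0.225). AT2 tumoroid 3 was the low one, and without it the difference was 0.74 (adjusted p = 0.0323). Srebf2, at 260 to 391 CPM, differed by 0.42 ± 0.15 (adjusted p = 0.0721), and without mixed BASC tumoroid 2 by 0.48 (adjusted p = 0.036).

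In the sterol branch Pmvk (phosphomevalonate kinase, chromosome 3, 89454541 to 89469013, plus strand) was at 225, 139, 89.9, 97.4, 131 and 97.9 CPM in AT2 tumoroids 1 to 3 and mixed BASC tumoroids 1 to 3. All were above the alveolar organoids' 85.4, 60.2 and 64.7, and the log2 fold change was 1.01 ± 0.30 (edgeR adjusted p = 0.0404). Sc5d, a sterol desaturase, was at 37.8 to 75.1 CPM in the tumoroids against 82.8 to 106 in the organoids (-0.70 ± 0.20, adjusted p = 0.0323). Hsd17b7, a reductase of the demethylation steps, was at 29.8 to 54.5 CPM against 59.6 to 85.0 (-0.64 ± 0.18, adjusted p = 0.0344). These 3 calls were not firm, because 0 sterol members were called when any 1 of the 3 alveolar organoids was left out. The Pmvk call was also lost without AT2 tumoroid 2 (adjusted p = 0.0615) or mixed BASC tumoroid 2 (0.0645), the Sc5d call without mixed BASC tumoroid 1 (0.0561), and the Hsd17b7 call without AT2 tumoroid 1 (0.0589), mixed BASC tumoroid 2 (0.0614) or mixed BASC tumoroid 3 (0.0559). Hmgcs1 and Insig1 were not called, at -0.05 ± 0.36 and -0.03 ± 0.31.

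The spread was wider among the tumoroids, mostly among the AT2-derived ones. The median CV over the sterol members was 33.4% among the 6 tumoroids and 13.5% among the 3 alveolar organoids, and over the fatty acid members 39% and 17.6%. Among the 3 AT2-derived tumoroids it was 45.2% in the sterol and 48.9% in the fatty acid branch, and among the 3 mixed BASC-derived ones 20.8% and 26.5%. The spread over all genes was wider too. The common CV that edgeR estimated, as a fraction, was 0.302 in the fit of alveolar against airway organoids. It was 0.457 in the fit of tumoroids against alveolar organoids and 0.539 in that of AT2- against mixed BASC-derived tumoroids. The wider spread was thus not particular to the members. The contrast moved with other lists as well. All 8 proliferation genes were called higher (sum 687.5 to 992 CPM against 236 to 288), 2 of 8 fibroblast markers (Lum and Postn) and 2 of 8 AT2 markers (Napsa and Lamp3) were called lower, and their part in the result was not tested.

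In the wider lists, 1 of 11 other sterol genes was lower, namely Mbtps2, the protease that releases SREBP (-0.58 ± 0.15, edgeR adjusted p = 0.0224). Soat1, which esterifies cholesterol, was the only 1 of 6 tested genes of efflux and storage to be called (-1.40 ± 0.40, adjusted p = 0.0337). Of 18 other fatty acid genes tested, Elovl1 was lower (-1.38 ± 0.30, adjusted p = 0.0116) and Tecr, a reductase of fatty acid elongation, higher (0.73 ± 0.20, adjusted p = 0.0272). Of 17 surfactant lipid genes 2 were higher and 3 lower, led by Gpam, which starts glycerolipid synthesis (-1.76 ± 0.42, adjusted p = 0.0167), and Dgat2, which makes triglyceride (1.61 ± 0.36, adjusted p = 0.0135). Leaving out the AT2 Ad-GFP organoids ended the calls of Mbtps2, Soat1, Elovl1, Tecr and Gpam (adjusted p 0.0755, 0.102, 0.063, 0.116 and 0.0637), and leaving out the AT2 Ad-Cre or the alveolar BASC organoids ended that of Dgat2 (0.0733 and 0.0701).

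No member of either branch passed the test between AT2-derived and mixed BASC-derived tumoroids. Of 33 members 0 were called by edgeR with 3 cultures against 3, and 0.0% of 15470 genes were called. Members at an unadjusted p below 0.05 numbered 0, against 0.931% of all genes (144), and DESeq2 called 0 genes higher and 7 lower. The log2 fold change was positive in 17 of 21 sterol and 9 of 12 fatty acid members, but with SEs of 0.20 to 0.57 in the sterol branch. Hmgcs1 differed by 0.40 ± 0.47, Fasn by -0.10 ± 0.55 and Scd1 by 0.54 ± 0.57.

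The AT2-derived tumoroids differed more among themselves. Hmgcs1 was at 523, 957 and 239 CPM in AT2 tumoroids 1 to 3, beside 386, 374 and 523 in mixed BASC tumoroids 1 to 3. AT2 tumoroid 2 had the highest level of the 6 in 17 of 21 sterol members and AT2 tumoroid 3 the lowest in 16 of 21, and these are the 2 cultures that share a label number and may come from 1 mouse. In the fatty acid branch AT2 tumoroid 2 was highest in 5 of 12 and AT2 tumoroid 3 lowest in 9 of 12. Elovl6 went the other way, with 97.5 CPM in AT2 tumoroid 3 and 16.9 and 29.5 in AT2 tumoroids 1 and 2. The share of all genes that were highest or lowest in AT2 tumoroids 2 and 3 is not given here.

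Without AT2 tumoroid 3 the median log2 difference of the sterol members between the groups was 0.48, and without AT2 tumoroid 2 it was -0.07. Marker levels moved with the same cultures. The summed fibroblast markers were 1000, 586 and 10236 CPM in AT2 tumoroids 1 to 3, and the summed AT2 markers were 90397, 62572 and 16470 CPM. AT2 tumoroid 3 thus had the most fibroblast and the least AT2 marker RNA of the 6. The part of this in its low lipid synthesis genes was not tested.

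The bronchiolar BASC tumoroid was the lowest of the transplant tumoroids for the synthase and for several sterol genes. It is 1 culture, so no test was made, and a member was counted only if it differed by at least 1 on the log2 scale from the mean of the 6 AT2- and mixed BASC-derived tumoroids and lay outside their range. By this rule 4 of 21 sterol members were lower and 0 higher, and 3 of 12 fatty acid members were lower and 0 higher, where 8.9% of 17844 genes were lower and 10.2% higher. The median difference was -0.35 in the sterol and -0.59 in the fatty acid branch, against 0.06 over all genes. In all, 5 sterol members lay below the range of the 6 and 2 above it, and 4 fatty acid members below and 1 above, where 15.2% of all genes lay below and 22.3% above. Among the 8 tumoroids AT2 tumoroid 3 was more often the lowest, in 12 of 21 sterol and 6 of 12 fatty acid members. The bronchiolar BASC tumoroid was the lowest in 5 and 4. The share of all genes for these ranks is not given here.

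Fasn was at 366 CPM in the bronchiolar BASC tumoroid, against 616 to 2411 in the 6 (log2 difference -1.83, or 3.56-fold lower). This is close to the 259 to 319 CPM of the airway and mixed BASC organoids. Acss2 was at 28.5 CPM against 45.5 to 197 (-1.67), and Acly at 266 against 423 to 985 (-1.17). Scd1, at 2092 CPM, was inside the range of 1904 to 8319. In the sterol branch Pmvk was at 34.2 CPM against 89.9 to 225 (-1.85), Stard4 at 33.2 against 65.9 to 132 (-1.60), Insig1 at 113 against 151 to 478 (-1.12) and Lss at 75.9 against 87.3 to 327 (-1.07). Without AT2 tumoroid 2 in the reference the sterol count was 2. Hmgcs1, at 259 CPM, and Srebf2, at 279, were inside the range.

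**Figure D5:**
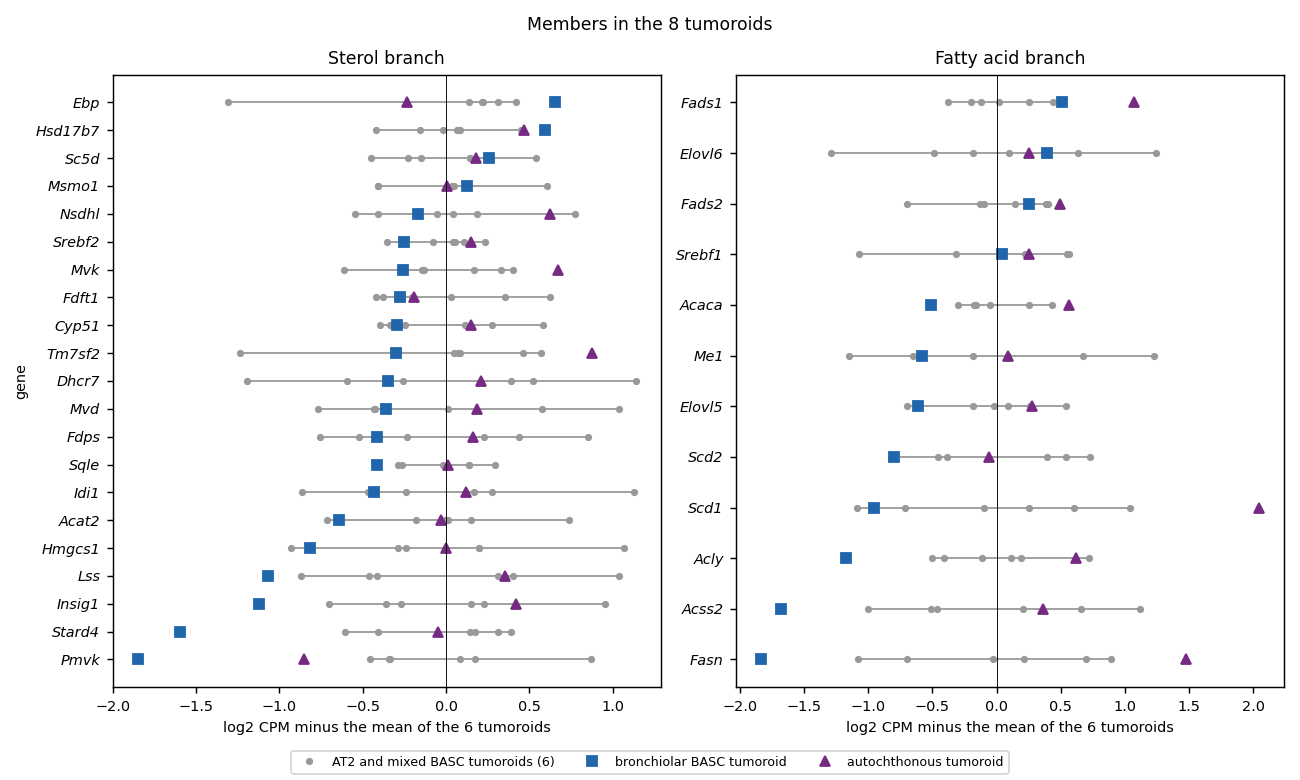
Level of each member (rows) in the 8 tumoroids as log2 CPM minus the mean of the 6 AT2- and mixed BASC-derived tumoroids, which are grey points joined by a line, with the bronchiolar BASC tumoroid as a blue square and the autochthonous tumoroid as a purple triangle. Pmvk, Stard4, Fasn and Acss2 of the bronchiolar BASC tumoroid lie to the left of the grey lines, and Scd1 and Fasn of the autochthonous tumoroid to the right.

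The same tumoroid had 11 of 17 surfactant lipid genes below the range of the 6, with 5 past the rule lower and 1 higher. The examples here were chosen after their values were seen. Dgat2, which makes triglyceride, was at 2.61 CPM against 20.8 to 54.2 (-3.72). The surfactant lipid transporter Abca3 was at 123 CPM against 397.6 to 1360 (-2.71) and Lpcat1 at 117 against 269 to 1357 (-2.51). Pcyt1b was the 1 that was higher, at 18.7 CPM against 0.29 to 5.46 (3.85). Of its lineage markers, 4 of 4 club and 4 of 5 basal markers were higher and 6 of 8 AT2 markers lower past the rule, with the AT2 sum at 7138 CPM against 16470 to 90397. Of 8 proliferation genes 6 lay below the range of the 6 and 0 passed the rule (median -0.61), whereas 8 of 8 fibroblast markers lay inside the range. The part of any of these lists in the result was not tested.

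In the autochthonous tumoroid 3 fatty acid and 0 sterol members passed the same rule, and whether the branches differed was not tested. Of the 21 sterol members 17 lay inside the range of the 6, 3 above it and 1 below. In the fatty acid branch 3 of 12 were higher and 0 lower, where 6.36% of all genes were higher and 5.11% lower, and 5 of 12 lay above the range, where 14.3% of all genes lay above and 15.4% below. Scd1 was at 16742 CPM against 1904 to 8319 (log2 difference 2.05), near the 17134 to 27744 of the alveolar organoids. Fasn was at 3616 CPM against 616 to 2411 (1.47), the highest value of the 18 cultures, and Fads1, which desaturates polyunsaturated fatty acids, at 371 against 136 to 240 (1.07). Without AT2 tumoroid 1 in the reference the count was 2. The medians were 0.15 in the sterol and 0.43 in the fatty acid branch. This culture also had 3 of 8 AT2 markers higher and 3 of 8 proliferation genes lower past the rule, with 8 of 8 proliferation genes below the range of the 6. Of 3 adipocyte markers tested, 2 (Plin1 and Plin4) were higher past the rule and Adipoq was inside the range (median 1.73), and the 5 on the list had a sum of 6.61 CPM against 0.48 to 4.84. The part of these lists in the result was not tested.

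Some members share their locus with another gene, and the sources used here do not state whether counting used the strand. Fdft1 overlaps Ctsb, Cyp51 overlaps Akap9, Mvd overlaps Gm20388, Srebf1 overlaps Rai1 and Acss2 overlaps Gss and Ggt7, each on the other strand, and Tm7sf2 overlaps Vps51 on its own strand. Reads could be split between such pairs and between the related desaturases Scd1 and Scd2, so values of these members are less certain than the others.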

How the data were processed

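RNA from 18 mouse cultures was analysed. The authors trimmed reads with Trimmomatic 0.39 and, per the labels, used STAR 2.6.1d, RSEM 1.3.2 and GRCm38. The authors deposited an expected count and a TPM per gene and sample, without normalization between samples. Whether counting used the strand is not given in the sources used here. Of 46603 genes, 46091 were matched to GENCODE vM21 symbols and 512 were not. No 2 samples held identical values.

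Expected counts were rounded and fitted per comparison with edgeR 4.0.16 in R 4.3.3 (filterByExpr, TMM factors, quasi-likelihood test, Benjamini-Hochberg adjustment over all genes, threshold 0.05). Samples were grouped by labelled tissue origin, treatment and transplantation. The Ad-Cre comparison had the cell population as a block, since the labels give each population 1 culture per virus. Single tumoroids were compared by log2 CPM with a prior count of 2, without a test, and counted at a difference of at least 1 outside the range of the 6. Alternatives were DESeq2 1.42.0, RLE factors, other filters, summed libraries, other sample sets and each library left out. The edgeR step was tested on simulated data. The tumoroids were the shallower libraries, and SEs cover the spread between cultures. For edgeR fits the SE was derived as the absolute log2 fold change divided by the square root of the F statistic.

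The members and lists were chosen with earlier results of these data known. Named were Fasn, Scd1, Hmgcs1, Srebf1, Srebf2 and Insig1, up to 4 called members per branch and up to 2 called genes from each other list by size of change, and any others are described by value. Promoter windows came from RefSeq (GRCm38.p6), and 7 members had no entry there. Transcripts of the human transgene were not used here. A result of the other sterol genes is not reported here.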

Additional observations from a re-analysis of the deposited data

Results flagged for a closer look

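In 66 groups of 5 or 6 cultures, 1 member each, the highest or lowest culture was set against the other cultures of its group, and 7 stood apart by Dixon's criterion at 95%. Chance flags about 1 in 20 groups. Among the 5 airway organoids, the bronchiolar BASC culture was highest for Scd1 (2016 CPM, others 174 to 365), Hsd17b7 (58.1 CPM, others 28.4 to 29.5) and Acly (235 CPM, others 171 to 178). The club Ad-GFP culture was lowest for Fdft1 (72.9 CPM, others 83.8 to 88.2), and the club Ad-Cre culture was highest for Elovl6 (39.6 CPM, others 32.5 to 33.6). Among the 6 AT2- and mixed BASC-derived tumoroids, AT2 tumoroid 1 was highest for Pmvk (225 CPM, others 89.9 to 139) and AT2 tumoroid 3 was lowest for Ebp (15.2 CPM, others 41.5 to 50.4).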

How the results depend on the processing

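Between alveolar and airway organoids, 17 to 20 sterol and 10 to 12 fatty acid members were called higher, and 0 lower, over all alternatives (with 1 library left out, 17 to 19 and 11 to 12). DESeq2 gave Scd1 no adjusted p there (log2 fold change 5.11). Between Ad-Cre and Ad-GFP organoids and between AT2- and mixed BASC-derived tumoroids, 0 members were called under all alternatives, also with no replicate block (Scd1 -0.56). The interaction was run once, with no alternative. Small Ad-Cre differences changed sign. With 1 pair left out, Fasn ranged from -0.028 to 0.026, Scd1 from -0.17 to 0.32, Hmgcs1 from -0.19 to 0.048, Srebf1 from -0.067 to 0.029 and Insig1 from -0.10 to 0.080. Fasn turned to 0.0013 with DESeq2 or RLE factors and 0.014 without a filter, Hmgcs1 to 0.19, Insig1 to 0.21 and Srebf2 to -0.029 in the trachea alone, and Srebf1 to 0.084 in the distal lung alone.

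Tumoroids against alveolar organoids depended most on the samples. The counts of sterol members higher and lower and of fatty acid members higher and lower were 2, 1, 1 and 0 with 7 transplant tumoroids against 4 distal Ad-Cre organoids, 0, 0, 0 and 0 with the Ad-Cre alveolar organoids alone, and 3, 4, 2 and 2 with tumoroids that share a number summed. Sterol members higher were 2 with DESeq2 and 0 without a filter. With 1 library left out the same counts were 0 to 2, 0 to 3, 0 to 2 and 0 to 2, Hmgcs1 ranged from -0.32 to 0.092 and Insig1 from -0.26 to 0.089, and all genes called were 831 to 2592 higher and 620 to 1892 lower. The 7 against 4 comparison, whose reference includes the mixed and bronchiolar BASC organoids, turned Fasn to 0.35, Hmgcs1 to 0.34 and Insig1 to 0.46. The Ad-Cre alveolar organoids alone turned Insig1 to 0.033. Summing shared numbers called 2905 genes higher and 2421 lower, and DESeq2 2980 and 2010, while summing populations called 3279 and 2716 for alveolar against airway. Between AT2- and mixed BASC-derived tumoroids, with 1 left out, Fasn ranged from -0.50 to 0.41, Hmgcs1 from -0.17 to 0.75, Srebf1 from -0.056 to 0.51 and Insig1 from -0.10 to 0.68, the negative end coming without AT2 tumoroid 2 (for Srebf1, 1). The cause was not tested.

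Leaving out each of the 6 tumoroids as reference was chosen after seeing the data. It gave 2 to 5 sterol and 3 to 4 fatty acid members lower in the bronchiolar BASC tumoroid, and 2 to 3 fatty acid members higher in the autochthonous one. Against the mixed BASC-derived tumoroids alone, 2 sterol members were lower.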
